A study of Mus musculus with 6 samples.

Results

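The genes described here are 10 genes that are known as induced by estrogen in reproductive epithelium or as products of mucosal defence: Ltf, Lcn2, C3, Pigr, Slpi, Wfdc2, Wfdc18, Cxcl17, Greb1 and Padi1. They were taken by symbol from a deposited table of 24964 genes, and all 10 were found in it. RNA was sequenced from uterine luminal epithelium of mice, cut out by laser capture; this sheet of cells faces the cavity in which the embryo arrives. The 3 Foxo1dd samples came from Pgrcre/+ Foxo1f/f females, which carry floxed Foxo1 alleles and, on 1 chromosome, Cre recombinase at the locus of the progesterone receptor, Pgr. The 3 Foxo1ff samples came from Foxo1f/f females, which carry the same floxed alleles and no Cre. All females were mated and dissected on pregnancy day 4, and their housing is described up to 8 weeks of age. Because Cre is expressed from the Pgr locus, deletion can reach every cell that expresses Pgr, the uterine stroma included, and the groups differ in a Pgr allele as well as in Foxo1, so effects of these cannot be told apart. The samples of a group are called bioreplicates, and no source used here describes the animals further; p-values therefore reflect only how far these 6 samples spread.

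Before implantation, ovarian estrogen drives the uterine epithelium to divide and to secrete an antimicrobial fluid, and the progesterone that follows normally curbs both. The secreted proteins withhold iron from bacteria, feed the complement cascade, carry antibodies into the lumen, block proteases and attract leukocytes. FOXO1 is a forkhead transcription factor that is held out of the nucleus by insulin and AKT signalling.

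Of the 10 genes, Ltf, Lcn2, Cxcl17 and Padi1 were higher in Foxo1dd, C3, Pigr and Slpi were lower, Wfdc2 did not pass the test, and Greb1 and Wfdc18 lay below the minimum for testing. The ratios of group means ran from 9.73-fold higher for Ltf to 165-fold lower for Slpi. On leaving out 1 sample, the Slpi ratio ran from 118-fold, without Foxo1ff replicate 2, to 478-fold, without Foxo1dd replicate 1. These replicates were the highest of their groups for Slpi. Levels are FPKM, a read count divided by gene length and library depth, as computed by the authors. The test was limma on log2(FPKM + 1), over the 11427 genes whose mean FPKM reached 1, with a Benjamini-Hochberg adjusted p under 0.05 as the threshold for a call. Every log2 change below is Foxo1dd minus Foxo1ff on that scale, with its standard error (SE) over 3 samples per group, and every adjusted p is from this limma fit. Permuting 3 against 3 samples exactly gives no p below 0.1, so no such test was used.

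Across the table, 56.4% of tested genes were called, 22.2% as higher and 34.2% as lower in Foxo1dd, so a call alone is common here. Among the 8 tested of the 10 genes, 4 were called higher and 3 lower. The 3 Foxo1dd values lay wholly above or wholly below the 3 Foxo1ff values for 7 of these 8, and for 64.2% of all tested genes. Slpi passed the minimum only through its Foxo1ff values, so these counts are a description of the genes and not evidence about them. The same limit holds below for every gene of a related list whose mean lies under 1 FPKM in 1 group, such as Ccl28, Ang, Il1a and Spink1, and for the list counts that include them. The median log2 change was 0.50 over the 8 and -0.15 over all tested genes. Median-of-ratios scaling moved the median of all tested genes to -0.03, and relative to the median of the deposited values the 7 called genes ran from -3.74 for Slpi to 3.19 for Ltf.

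**Figure D1:**
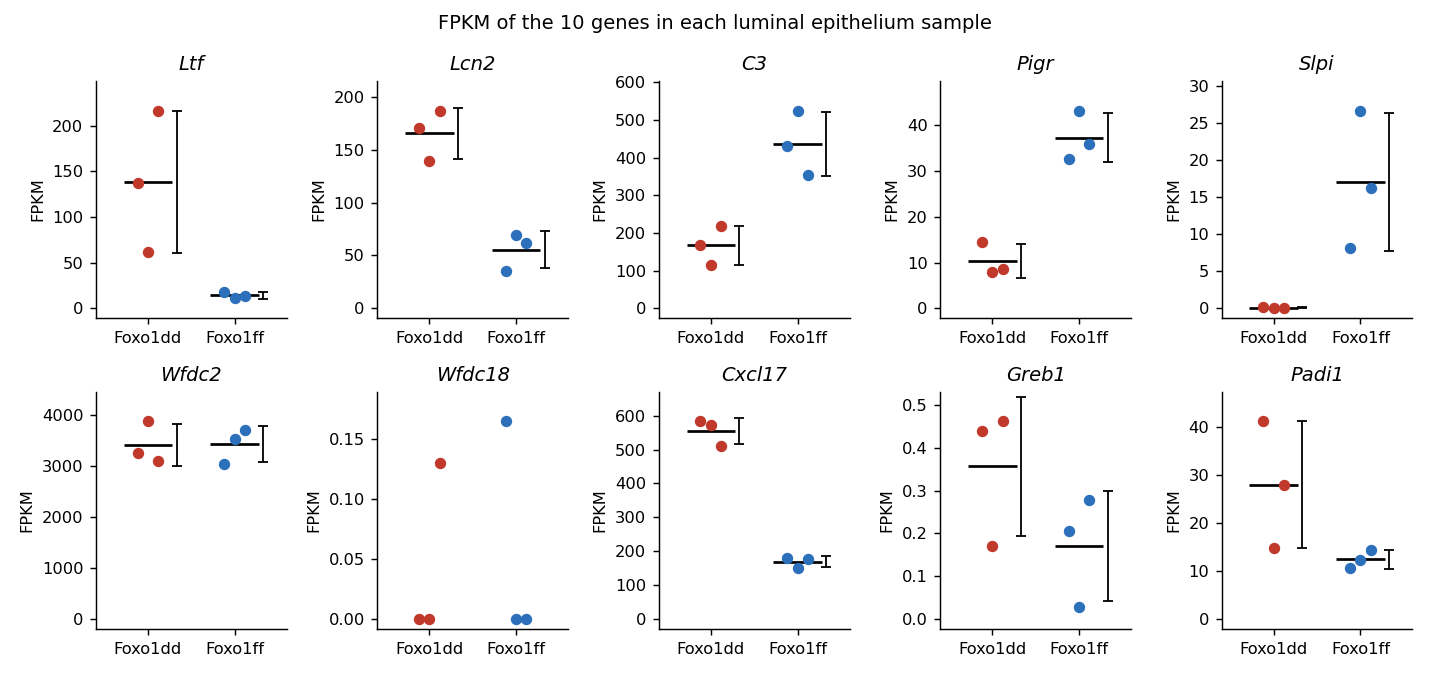
FPKM (vertical axes, linear, 1 panel per gene) of the 10 genes in the 3 Foxo1dd samples (red) and the 3 Foxo1ff samples (blue). Points are samples, horizontal bars are group means and vertical bars are ± 1 SD, left out for Wfdc18, which is listed at 0 in 4 of 6 samples. The groups do not overlap for Ltf, Lcn2, C3, Pigr, Slpi, Cxcl17 and Padi1, although the lowest Foxo1dd value of Padi1, 14.8 FPKM, lies just above the highest Foxo1ff value of 14.5 FPKM.

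The capture and the deletion were checked in the same values. Foxo1 had 1.72, 0.942 and 1.22 FPKM in Foxo1dd and 160, 119 and 111 FPKM in Foxo1ff (log2 change -5.83 ± 0.19, adjusted p = 1.21e-07). Pgr, at which the Cre gene sits, had 36.2, 29.9 and 28.3 FPKM in Foxo1dd and 2.44, 1.64 and 2.02 FPKM in Foxo1ff (3.42 ± 0.16, adjusted p = 7.45e-07). Esr1, the main estrogen receptor of the uterus, was not called, at 107, 53.5 and 100 FPKM in Foxo1dd and 72.1, 67.6 and 71.0 FPKM in Foxo1ff (0.24 ± 0.23, adjusted p = 0.403). It was called higher without Foxo1dd replicate 2 (log2 change 0.56, adjusted p = 0.00349) and, over all 6 samples, with array weights (0.47, adjusted p = 0.0182), in a range of 0.00349 to 0.849 over its alternatives. The epithelial markers Krt18, Epcam and Cdh1 averaged 908, 393 and 194 FPKM in Foxo1dd and 745, 555 and 289 FPKM in Foxo1ff. Summed over 14 such markers the level was 3935 to 4642 FPKM in Foxo1dd and 2708 to 3518 FPKM in Foxo1ff, against sums over 14 stroma markers of 41.9 to 59.3 FPKM in Foxo1dd and 38.0 to 43.0 FPKM in Foxo1ff. All 14 epithelial markers were tested, of which 5 were called higher and 3 lower. Of the 14 stroma markers, 10 were tested, with 3 called higher and 0 lower, beside 22.2% and 34.2% of all tested genes. Among these stroma markers, 2 reached the minimum only through Foxo1dd. Genes above 0 numbered 13995 in Foxo1dd replicate 2, against 15474 to 16062 in the other 5 libraries. That library was the lowest of its group for 56.5% of all tested genes and for 6 of the 8 tested genes described here. Log2 changes without it therefore stand beside the called genes below. Foxo1ff replicate 3 was the lowest of its group for 48.9% of all tested genes. Rn45s, a ribosomal RNA gene, had 40296 FPKM in Foxo1dd replicate 2 and 23715 to 31304 FPKM in the other 5 libraries. Summed over all genes, FPKM was 552190 to 564628 in Foxo1dd and 613186 to 667499 in Foxo1ff. In these bulk samples, fewer expressing cells and less RNA per cell cannot be told apart.

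Stretches of promoter sequence are shown because the genes share a label, estrogen-induced, and not a direction of change. RefSeq windows of GRCm38.p6, 250 bases before to 50 after a start site, were matched for 9 of the 10 genes (11 windows, Cxcl17 not among them). The estrogen response element, GGTCA and TGACC with 3 bases between them, was in 0 of the 11 windows and in 0.07% of all 32851 windows. The forkhead word GTAAACA was in 0 of 11 and in 3.65% of all windows, and TGTTCT, an arm of the progesterone response element, was in 1 of 11, that of Pigr, and in 19.0% of all. The word AGGTCA, a single arm of the estrogen response element, was in 5 of 11 windows, belonging to 4 genes, and in 16.3% of all. Both strands were searched for each word. All but the first letter of this word also form the first arm of the full element. The 4 genes with AGGTCA are a gene that rose (Ltf), a gene that fell (C3), a gene that was not called (Wfdc2) and a gene below the minimum (Greb1). In the windows below, written 5′ to 3′ along the strand of the gene, capitals mark the word or, for Greb1, its reverse complement TGACCT. The word starts at -46 from the start site in Ltf, at -243 in C3, at -5 or -6 in Wfdc2, which has overlapping windows, and at -88 in Greb1. A match is a description of the letters and not a binding site. Sequence outside these windows and words with differing letters were not searched, so an absent match does not show that a gene lacks an element.
Ltf, plus strand, chr9:111019234-111019263: gccagcccggtgAGGTCAcccagcacagat
C3, minus strand, chr17:57228362-57228386: tgggaggAGGTCActctagacttca
Wfdc2, plus strand, chr2:164562698-164562727: catcctggctgcAGGTCAcacctgcaccat
Greb1, minus strand, chr12:16800957-16800986: ccaagcaacaaaTGACCTctgtccccggag

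The full windows of Ltf and Slpi, which had the largest rise and the largest fall among the 8 tested genes, follow with the same word in capitals. That of Slpi held none of the words searched, and its RefSeq start site lies inside the longer GENCODE span of the gene.
Ltf, plus strand, chr9:111019042-111019341: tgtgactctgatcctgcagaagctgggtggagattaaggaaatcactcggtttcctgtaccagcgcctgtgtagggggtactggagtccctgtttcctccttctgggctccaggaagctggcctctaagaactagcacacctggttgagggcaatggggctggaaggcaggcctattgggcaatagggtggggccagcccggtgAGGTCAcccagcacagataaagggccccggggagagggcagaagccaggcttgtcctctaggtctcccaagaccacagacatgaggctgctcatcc
Slpi, minus strand, chr2:164356458-164356757: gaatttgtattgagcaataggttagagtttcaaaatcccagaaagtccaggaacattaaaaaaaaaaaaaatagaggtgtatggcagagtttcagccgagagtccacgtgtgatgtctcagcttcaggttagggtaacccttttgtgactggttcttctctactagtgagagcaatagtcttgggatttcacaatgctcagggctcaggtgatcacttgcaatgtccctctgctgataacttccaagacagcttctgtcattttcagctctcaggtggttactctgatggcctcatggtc

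Both genes whose products take iron away from bacteria were higher. Ltf encodes lactoferrin, a secreted iron-binding protein and the classical estrogen-induced product of the mouse uterine epithelium (chromosome 9, 111019271 to 111042767, plus strand). It had 137, 61.2 and 216 FPKM in Foxo1dd and 17.9, 10.9 and 13.8 FPKM in Foxo1ff. Every Foxo1dd sample stood at least 3.43 times above the highest Foxo1ff sample, and Foxo1dd replicate 2 was the lowest of its group. The means were 138 ± 77.6 FPKM in Foxo1dd and 14.2 ± 3.48 FPKM in Foxo1ff (SD, n = 3 each), with a log2 change of 3.04 ± 0.39 (adjusted p = 0.000169). Without Foxo1dd replicate 2 the log2 change was 3.53. With all genes of the table ordered by mean FPKM, Ltf stood at rank 582 in Foxo1dd and at rank 5793 in Foxo1ff. Ltf shares a chromosome with the Cre insertion at Pgr, at a distance of 102.05 Mb.

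Lcn2 encodes lipocalin 2, which binds the siderophores that bacteria release to capture iron (chromosome 2, 32384633 to 32388252, minus strand). Its values were 171, 139 and 187 FPKM in Foxo1dd and 35.7, 69.2 and 61.8 FPKM in Foxo1ff. The lowest Foxo1dd sample was 2.01 times the highest Foxo1ff sample. Means were 166 ± 24.3 FPKM in Foxo1dd and 55.6 ± 17.6 FPKM in Foxo1ff (SD, n = 3 each), 2.98-fold higher in Foxo1dd, with a log2 change of 1.60 ± 0.23 (adjusted p = 0.000370) and of 1.72 without Foxo1dd replicate 2. Within Foxo1dd, Lcn2 had a coefficient of variation of 14.7% and Ltf one of 56.2%.

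Ltf and Lcn2 are also stored in neutrophil granules, so neutrophil markers were read beside them. Of 16 markers, 7 were listed at 0 in every sample, among them S100a8, Camp, Ngp, Elane and Retnlg, named here after their values were seen. The level summed over the 16 markers was higher in Foxo1dd, at 1.97 to 5.10 FPKM, against 0.409 to 1.22 FPKM in Foxo1ff. Ly6g was the only tested marker, and reached the minimum only through Foxo1dd, with 1.10, 4.37 and 1.89 FPKM in Foxo1dd and 0, 0.099 and 0.262 FPKM in Foxo1ff, and it was called higher (1.52 ± 0.33, adjusted p = 0.00358). Mpo was listed at 0 in all 3 Foxo1dd samples and had 0.392, 0.510 and 0.446 FPKM in Foxo1ff. The part of neutrophils in the Ltf and Lcn2 values was not tested further.

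Other genes of iron handling included 3 that fell. Of 19 listed, 9 were tested by limma, 0 were called higher, likewise 0 at an unadjusted p under 0.05, and 3 lower, with a median log2 change of 0.24 beside -0.15 over all tested genes, of which 56.4% were called. The 3 that fell were Tfrc, the transferrin receptor that takes iron into cells, Fth1, the heavy chain of the iron store ferritin, and Slc11a2, a ferrous iron importer. Tfrc averaged 6.04 ± 0.529 FPKM in Foxo1dd and 74.0 ± 10.2 FPKM in Foxo1ff (SD, n = 3 each; log2 change -3.41 ± 0.14, adjusted p = 3.81e-07). Fth1 averaged 484 FPKM in Foxo1dd and 3185 FPKM in Foxo1ff (-2.71 ± 0.13), and Slc11a2 2.78 FPKM in Foxo1dd and 18.2 FPKM in Foxo1ff (-2.37 ± 0.19). The count of higher genes depended on 1 library, and was 4 without Foxo1dd replicate 2, 2 with array weights and 1 after quantile normalization. The count of lower genes was 3 without that library and 6 with no minimum, when more genes are tested. Slc22a17, described as a receptor for lipocalin 2, was not called (4.46 FPKM in Foxo1dd and 2.89 FPKM in Foxo1ff, adjusted p = 0.150). Outside the list of 19, the zinc and iron transporter gene Slc39a14, described below, rose (log2 change 2.94 ± 0.35, limma adjusted p = 0.000107).

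C3 and Pigr, which serve complement and antibody defence, were lower. C3 encodes the central component of complement, whose cleavage marks microbes for uptake (chromosome 17, 57203970 to 57228136, minus strand). It had 168, 115 and 218 FPKM in Foxo1dd and 431, 524 and 354 FPKM in Foxo1ff. The highest Foxo1dd sample lay below the lowest Foxo1ff sample. Means were 167 ± 51.5 FPKM in Foxo1dd and 437 ± 85.3 FPKM in Foxo1ff (SD, n = 3 each), 2.62-fold lower in Foxo1dd, with a log2 change of -1.41 ± 0.23 (adjusted p = 0.000772). Without Foxo1dd replicate 2, the lowest library, the log2 change was -1.17. C3 remained an abundant transcript, at rank 461 in Foxo1dd against rank 179 in Foxo1ff.

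The genes around C3 in the cascade split in both directions. Of 26 listed components, 12 were tested, 6 were called higher and 5 lower (median log2 change 0.51). Over all tested genes 22.2% were higher and 34.2% lower, with a median of -0.15, so a split is common here. Of the 12, 3 reached the minimum only through Foxo1dd, C2 among them. C2 and Cfb, whose products form the enzymes that cleave C3, were higher: C2 had 7.90 ± 2.00 FPKM in Foxo1dd and 0.239 ± 0.0737 FPKM in Foxo1ff, and Cfb 113 ± 21.6 FPKM in Foxo1dd and 24.9 ± 3.45 FPKM in Foxo1ff (SD, n = 3 each; log2 changes 2.82 ± 0.21 and 2.12 ± 0.17). C2 and Cfb are neighbours, and the annotation places exons of the readthrough gene Gm20547 over both on the same strand. Gm20547 is not among the deposited genes, and whether any reads were assigned to it is not known. Cd55, the surface protein that takes apart the C3 convertase, fell to 127 ± 15.5 FPKM in Foxo1dd, against 328 ± 102 FPKM in Foxo1ff (-1.32 ± 0.20). Among 13 complement receptors and regulators, 5 were tested, of which 2 rose and 2 fell; 1 reached the minimum only through Foxo1dd and 1, Cd55b, only through Foxo1ff. Besides Cd55, Cd55b fell (0.0217 FPKM in Foxo1dd and 3.33 FPKM in Foxo1ff) and Cd59a, an inhibitor of the pore that ends the cascade, rose (36.0 FPKM in Foxo1dd and 16.6 FPKM in Foxo1ff). The lower components included C1qa, C1qb and C1qc, macrophage products named here after their values were seen, with log2 changes of -1.59, -1.18 and -0.91. Beside them, 7 of 10 tested leukocyte and macrophage markers were lower and 3 higher, and the 15 markers summed to 219 to 257 FPKM in Foxo1dd and 139 to 172 FPKM in Foxo1ff. The sum thus went against most of the tested markers, whose median log2 change was -1.10. Ptprc, the pan-leukocyte marker CD45, was 1 of the 7 lower, averaging 0.294 FPKM in Foxo1dd and 3.59 FPKM in Foxo1ff. It is 1 of 3 of these markers that reached the minimum only through Foxo1ff. The part of such cells in the complement values was not tested.

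Pigr encodes the polymeric immunoglobulin receptor, which carries IgA through the epithelium and is shed with it as secretory component (chromosome 1, 130826684 to 130852249, plus strand). It had 14.6, 7.85 and 8.49 FPKM in Foxo1dd and 32.7, 43.2 and 35.9 FPKM in Foxo1ff. All Foxo1dd samples lay below all Foxo1ff samples. The means were 10.3 ± 3.72 FPKM in Foxo1dd and 37.3 ± 5.36 FPKM in Foxo1ff (SD, n = 3 each), 3.62-fold lower in Foxo1dd, with a log2 change of -1.80 ± 0.22 (adjusted p = 0.000128) and of -1.64 without Foxo1dd replicate 2. Of 12 genes listed for the antibody route, 9 were in the table and 4 were tested. Ccl28, a chemokine that draws IgA plasma cells, rose, with 10.98, 1.02 and 8.50 FPKM in Foxo1dd and 0.258, 0.309 and 0.453 FPKM in Foxo1ff (2.20 ± 0.56, adjusted p = 0.00893). Mzb1, a plasma cell and B cell gene, fell to 1.012 FPKM in Foxo1dd, against 7.41 FPKM in Foxo1ff. The annotation places exons of SPATA24 over Mzb1 on the same strand, sharing 695 bases. Cd74 was not called, at 6.07 FPKM in Foxo1dd and 10.03 FPKM in Foxo1ff (adjusted p = 0.0893), but was called lower without Foxo1ff replicate 1 (adjusted p = 0.00261) and, over all 6 samples, with array weights (-0.90, adjusted p = 0.00475), in a range of 0.00261 to 0.316 over its alternatives. Jchain, which links the IgA dimer, was listed at 0 in 5 of 6 samples. Of 8 plasma cell markers, 5 were in the table, and these summed to 13.8 to 19.5 FPKM in Foxo1dd and 34.995 to 41.8 FPKM in Foxo1ff. Both tested ones were lower, beside 34.2% of all tested genes. Most of each sum came from markers other than Mzb1, and such markers need not be particular to plasma cells. The part of plasma cells in the Pigr values was not tested.

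The 3 genes of the whey acidic protein family, small secreted proteins folded by disulfide bonds, differed in outcome. Slpi encodes secretory leukocyte protease inhibitor, which blocks neutrophil elastase and kills bacteria (chromosome 2, 164354070 to 164389095, minus strand). It had 0.237, 0.031 and 0.040 FPKM in Foxo1dd and 8.08, 26.7 and 16.2 FPKM in Foxo1ff. Each Foxo1dd value was far below each Foxo1ff value, and within Foxo1ff replicate 2 was highest and replicate 1 lowest. The means were 0.103 ± 0.116 FPKM in Foxo1dd and 17.0 ± 9.32 FPKM in Foxo1ff (SD, n = 3 each), with a log2 change of -3.89 ± 0.35 (adjusted p = 2.16e-05) and of -3.84 without Foxo1dd replicate 2. This change is understated by the pseudocount, and was -6.38 with 0.1 in place of 1. From the steps of low values, and with the GENCODE exon length, the Foxo1dd values equal about 21.6, 2.71 and 4.01 reads and the Foxo1ff values about 850, 3104 and 1583 reads. Slpi fell beside markers of uterine glands, of which 4 of 5 tested were lower and 1, Sox9, higher, and whose sum was 19.0 to 35.02 FPKM in Foxo1dd and 678 to 713 FPKM in Foxo1ff. Foxa2, the factor that defines glands, lay below the minimum in the fit, at 0.644 FPKM in Foxo1dd and 0.943 FPKM in Foxo1ff. Spink1, a glandular protease inhibitor, had 0.307, 0.064 and 0 FPKM in Foxo1dd and 44.2, 57.2 and 178 FPKM in Foxo1ff, and the part of glandular cells in the Slpi values was not tested. Of the 5 tested gland markers, 3 reached the minimum only through Foxo1ff, Spink1 among them, and 34.2% of all tested genes were lower. Most of each gland sum came from markers other than Spink1 and Foxa2, and such markers need not be particular to glands.

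Wfdc2, also known as HE4, is a secreted protein of the same family made by many ducts and mucosae (chromosome 2, 164562413 to 164568510, plus strand). It was the most abundant of the 10 genes, at rank 8 of all genes in Foxo1dd and rank 9 in Foxo1ff. Its values were 3264, 3876 and 3097 FPKM in Foxo1dd and 3030, 3537 and 3715 FPKM in Foxo1ff, and the groups overlapped. The log2 change was -0.01 ± 0.16 (adjusted p = 0.973), with a 95% interval of -0.38 to 0.36, and its sign turned under both median-of-ratios scaling (0.12) and quantile normalization (0.06). Within groups Wfdc2 varied by 12.02% in Foxo1dd and by 10.4% in Foxo1ff (coefficient of variation). Wfdc2 made up most of the summed FPKM of the 10 genes, which was 4265 to 4785 in Foxo1dd and 3746 to 4390 in Foxo1ff. Without it, the sums were 910 to 1168 FPKM in Foxo1dd and 675 to 837 FPKM in Foxo1ff.

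Wfdc18, known as an extracellular proteinase inhibitor of the mammary gland (chromosome 11, 83709015 to 83711348, plus strand), was listed at 0 in Foxo1dd replicates 1 and 2 and had 0.130 FPKM in replicate 3. It had 0.165 FPKM in Foxo1ff replicate 1 and was listed at 0 in replicates 2 and 3. The values above 0 correspond to about 13.5 reads in Foxo1dd and 17.95 reads in Foxo1ff, and no fold is given.

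Slpi and Wfdc2 lie 173.3 kb apart in a cluster of whey acidic protein genes on chromosome 2. Most other genes of this family and neighbouring inhibitor genes were too low to test: of 23 listed, 20 were in the table, 15 lay below the minimum and 5 of those 15 were at 0 in every sample. Below the minimum, Wfdc13 had 0.603, 1.31 and 1.99 FPKM in Foxo1dd and 0, 0 and 0.180 FPKM in Foxo1ff, and Spint3 had 2.20, 1.07 and 1.87 FPKM in Foxo1dd and 0, 0.146 and 0.218 FPKM in Foxo1ff. Neither overlapped between the groups, nor did Wfdc8, with 0.159, 0.174 and 0.207 FPKM in Foxo1dd and 0, 0 and 0.014 FPKM in Foxo1ff. In the other direction, Wfdc16 and Wfdc21 were at 0 in every Foxo1dd sample. Wfdc16 had 0.020, 0.054 and 0.173 FPKM in Foxo1ff, and Wfdc21 had 0.410, 0.625 and 1.77 FPKM there. All of these are named here after their values were seen. The groups did not overlap for 64.2% of all tested genes. That share was not taken over genes below the minimum, where these genes lie. Of the 5 tested, 3 were called higher and 1 lower, beside 22.2% and 34.2% of all tested genes. The higher ones include Wfdc1, which lies outside the cluster on chromosome 8. Eppin and Wfdc6a, 19833 and 11009 bases from Wfdc2, rose: Eppin, known from the epididymis and testis, had 5.10, 6.32 and 7.496 FPKM in Foxo1dd and 0.030, 0 and 0 FPKM in Foxo1ff. Wfdc6a had 1.96, 2.14 and 6.73 FPKM in Foxo1dd and 0, 0 and 0.014 FPKM in Foxo1ff (log2 changes 2.84 ± 0.19 and 2.05 ± 0.35, adjusted p = 4.05e-06 and 0.000918). Wfdc15b, 132.4 kb from Slpi, fell to 5.06, 6.55 and 2.91 FPKM in Foxo1dd, against 21.3, 26.5 and 28.9 FPKM in Foxo1ff (-2.23 ± 0.24). Within this cluster, then, Eppin and Wfdc6a rose, Slpi and Wfdc15b fell, and Wfdc2 and Wfdc10 did not pass the test (limma adjusted p = 0.754 for Wfdc10). Eppin and Wfdc6a passed the minimum only through Foxo1dd.

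Cxcl17 encodes a chemokine of mucosal surfaces with antimicrobial activity (chromosome 7, 25400053 to 25412886, minus strand). It had 583, 572 and 510 FPKM in Foxo1dd and 179, 150 and 178 FPKM in Foxo1ff, with no overlap and a coefficient of variation of 7.12% in Foxo1dd and 9.72% in Foxo1ff, lower than those of Ltf, Lcn2 and Padi1. The means were 555 ± 39.5 FPKM in Foxo1dd and 169 ± 16.5 FPKM in Foxo1ff (SD, n = 3 each), 3.2796-fold higher in Foxo1dd, with a log2 change of 1.71 ± 0.12 (adjusted p = 6.22e-06) and of 1.69 without Foxo1dd replicate 2. Gpr35, once proposed as its receptor and named here after its values were seen, lay below the minimum, with 1.17, 1.10 and 1.44 FPKM in Foxo1dd and 0.040, 0.027 and 0.024 FPKM in Foxo1ff. Of 20 listed chemokine genes, 5 were tested, 1 was called higher and 3 lower, beside 22.2% and 34.2% of all tested genes. Cxcl14, an epithelial chemokine, rose to 94.99 ± 44.3 FPKM in Foxo1dd, against 12.9 ± 3.02 FPKM in Foxo1ff (2.71 ± 0.30). Cxcl16 fell to 9.59 FPKM in Foxo1dd, against 21.4 FPKM in Foxo1ff, and the receptor gene Cxcr4 to 3.33 FPKM in Foxo1dd, against 27.9 FPKM in Foxo1ff. Cxcl5, a chemokine of inflammation that attracts neutrophils, fell to 3.53 FPKM in Foxo1dd, against 16.1 FPKM in Foxo1ff (-1.95 ± 0.40, adjusted p = 0.00284). Cxcl1, Cxcl2, Cxcl9 and Cxcl10, likewise chemokines of inflammation, lay below the minimum.

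**Figure D2:**
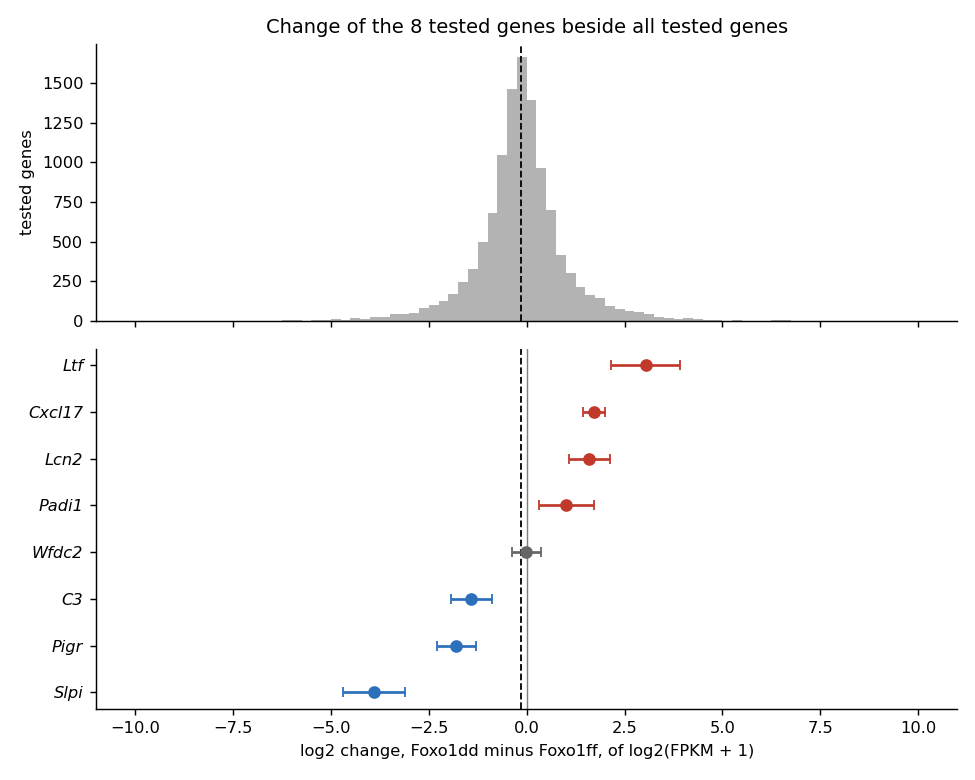
Top, the number of tested genes (vertical axis) by log2 change (horizontal axis, Foxo1dd minus Foxo1ff of log2(FPKM + 1), bins of 0.25) for all 11427 tested genes. Bottom, the log2 change of the 8 tested genes with 95% intervals, red for called higher, blue for called lower and grey for not called; the dashed line is the median of all tested genes, -0.15. Ltf at 3.04 and Slpi at -3.89 lie in the tails, and Wfdc2 at -0.01 lies near the middle.

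The remaining genes act inside the cell. Greb1 encodes a cofactor of the estrogen receptor and is among the best known direct estrogen targets (chromosome 12, 16670615 to 16800886, minus strand). It had 0.439, 0.170 and 0.462 FPKM in Foxo1dd and 0.206, 0.027 and 0.278 FPKM in Foxo1ff, and the groups overlapped. Its mean lay below the minimum, and with no minimum it was not called (log2 change 0.21, adjusted p = 0.217). The annotation places exons of Gm48140 antisense to it, sharing 736 bases.

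Padi1 encodes a peptidylarginine deiminase, an enzyme that turns arginine in proteins into citrulline (chromosome 4, 140812983 to 140845778, minus strand). It had 41.2, 14.8 and 28.03 FPKM in Foxo1dd and 10.6, 12.3 and 14.5 FPKM in Foxo1ff. Foxo1dd replicate 2 stood only 1.02 times above the highest Foxo1ff sample, while replicates 1 and 3 stood clear of it. Means were 28.02 ± 13.2 FPKM in Foxo1dd and 12.5 ± 1.95 FPKM in Foxo1ff (SD, n = 3 each), 2.246-fold higher in Foxo1dd, with a log2 change of 1.00 ± 0.31 (adjusted p = 0.0211) and of 1.39 without Foxo1dd replicate 2. The call was lost without Foxo1dd replicate 1 (0.68, adjusted p = 0.0719), Foxo1ff replicate 1 (adjusted p = 0.0678) or Foxo1ff replicate 2 (adjusted p = 0.0535), and with no minimum (adjusted p = 0.0705). Across 16 alternatives its adjusted p ran from 0.000459 to 0.0719. Gm13032, which shares 1200 exon bases with Padi1 on the opposite strand, had at most 0.259 FPKM in any sample.

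Padi2, which lies 60.6 kb from Padi1, was also higher, with 33.3, 13.2 and 49.4 FPKM in Foxo1dd and 3.49, 5.62 and 4.69 FPKM in Foxo1ff (2.39 ± 0.40, adjusted p = 0.000815). As for Padi1, Foxo1dd replicate 2 was the lowest of its group. Padi4, which lies 38.7 kb from Padi1, was not called, at 7.12, 7.05 and 9.15 FPKM in Foxo1dd and 7.85, 8.13 and 8.30 FPKM in Foxo1ff (-0.06 ± 0.15, adjusted p = 0.755, interval -0.40 to 0.28), and its sign turned under median-of-ratios scaling (0.05). Padi3 and Padi6 lay below the minimum.

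Other products of mucosal defence went in both directions. Of 37 listed antimicrobial genes, 8 were tested, 2 were called higher and 5 lower, with a median log2 change of -1.92, and 14 were listed at 0 in every sample. Over all tested genes 34.2% were lower and 56.4% called. Sftpd, surfactant protein D, a lectin that clumps microbes, fell to 53.3 ± 13.7 FPKM in Foxo1dd, against 623 ± 58.8 FPKM in Foxo1ff (-3.55 ± 0.19, adjusted p = 1.12e-06). Ang, angiogenin, had 0.041, 0.085 and 0 FPKM in Foxo1dd and 11.2, 38.3 and 19.1 FPKM in Foxo1ff (-4.35 ± 0.36), and shares exons with Rnase4 on the same strand, which had 1.91, 0.941 and 1.51 FPKM in Foxo1dd and 135, 399 and 203 FPKM in Foxo1ff. Chil1, a chitinase-like protein, fell to 5.28 FPKM in Foxo1dd, against 46.9 FPKM in Foxo1ff. The pair that rose, named after their values were seen, were Lbp, which binds bacterial lipopolysaccharide (372 FPKM in Foxo1dd and 206 FPKM in Foxo1ff), and the defensin Defb1 (4.34 FPKM in Foxo1dd and 1.08 FPKM in Foxo1ff).

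Genes known as estrogen-responsive in the uterus also went both ways. Of 40 listed beside the 10, 30 were tested, 12 were called higher and 14 lower, with a median log2 change of -0.58. Over all tested genes 22.2% were higher and 34.2% lower, with a median of -0.15. Ckb, creatine kinase B, a long known estrogen-induced protein of the uterus, rose to 691 ± 84.1 FPKM in Foxo1dd, against 63.2 ± 9.85 FPKM in Foxo1ff (3.44 ± 0.15, adjusted p = 4.75e-07). Ccnd1, cyclin D1, fell to 3.35 ± 1.31 FPKM in Foxo1dd, against 119 ± 8.57 FPKM in Foxo1ff (-4.83 ± 0.22, adjusted p = 5.65e-07). Muc1, the surface mucin, named after its values were seen, rose to 59.0 FPKM in Foxo1dd, against 21.04 FPKM in Foxo1ff (1.45 ± 0.14).

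Genes that induce mucosal defence through microbial sensing and inflammatory cytokines were measured as well. Of 33 listed, 31 were in the table and 24 were tested, of which 7 were called higher and 9 lower (median log2 change -0.13). These counts lie near those over all tested genes, of which 22.2% were higher and 34.2% lower, with a median of -0.15. Myd88, the adaptor of Toll-like and interleukin-1 receptors, had 276, 341 and 409 FPKM in Foxo1dd and 33.9, 33.3 and 33.8 FPKM in Foxo1ff (3.29 ± 0.15, adjusted p = 5.80e-07). The epithelial transcription factor gene Elf3 had 135, 103 and 134 FPKM in Foxo1dd and 33.2, 29.0 and 33.4 FPKM in Foxo1ff (1.92 ± 0.14). Il1a, an interleukin-1 released by epithelia, fell to 0.092, 0.294 and 0.572 FPKM in Foxo1dd, against 9.14, 14.7 and 20.6 FPKM in Foxo1ff (-3.53 ± 0.28). Myd88 overlaps exons of Acaa1a on the opposite strand, and Elf3 those of Gm26642.

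**Figure D3:**
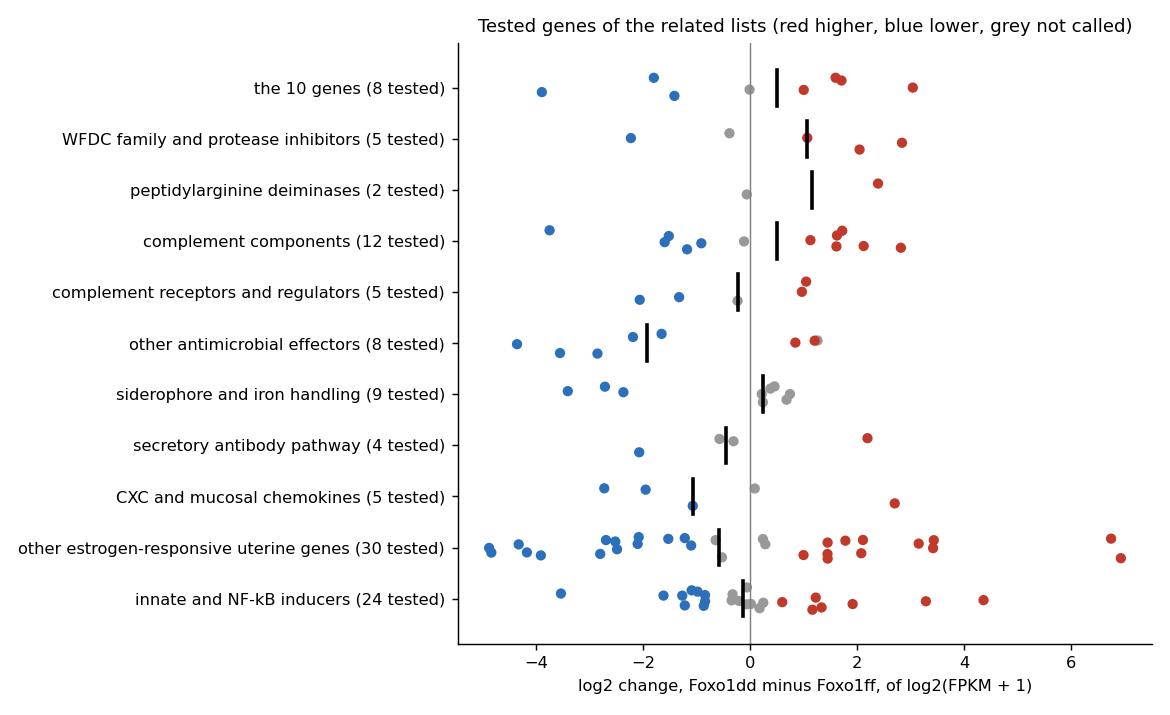
Log2 change (horizontal axis, Foxo1dd minus Foxo1ff of log2(FPKM + 1)) of every tested gene of the 10 described and of 10 related lists (rows), with vertical jitter. Points are genes, red for called higher, blue for called lower and grey for not called, and black bars are list medians. Rows such as complement components, with 6 higher and 5 lower, spread to both sides of 0.

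For each tested gene, the genes nearest to it in pattern were found as the smallest Euclidean distance between mean-centred log2(FPKM + 1) values over the 6 samples. Slc39a14, a zinc and iron transporter gene, and Pfkfb3 were nearest to Ltf, at distances of 0.39 and 0.52. Slc39a14 had 103, 41.1 and 120 FPKM in Foxo1dd and 10.97, 7.71 and 10.3 FPKM in Foxo1ff, again with Foxo1dd replicate 2 the lowest of its group. Dse and Nudt22 were nearest to Lcn2 (0.35 and 0.42), Simc1 and Selenon to C3 (0.31 and 0.35), and Mir17hg and Pim1 to Pigr (0.24 and 0.32). Nearest to Slpi were Pclaf and Cdk1 (0.37 and 0.44), genes of the cell cycle whose Foxo1ff values, 15.4, 39.2 and 26.1 FPKM for Pclaf, peaked in replicate 2 as those of Slpi did. Paip2 and Nedd8 were nearest to Wfdc2 (0.06 and 0.07), Vill and Pfkm to Cxcl17 (both 0.16), and Snai3 and Eva1c to Padi1 (0.33 and 0.38). The distance rewards a like size of change as well as a like order of samples, and over 6 samples in 2 groups many genes lie close to any given one.

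**Figure D4:**
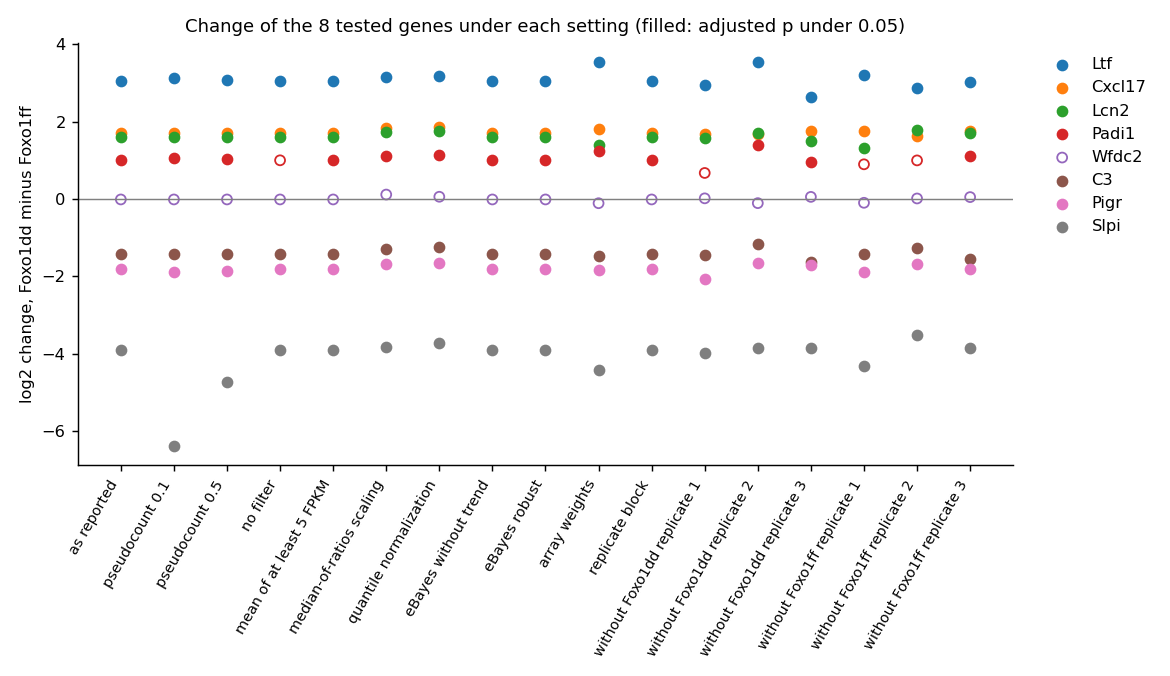
Log2 change (vertical axis, Foxo1dd minus Foxo1ff) of the 8 tested genes under the reported setting and 16 alternatives (horizontal axis). Filled points have an adjusted p under 0.05 and open points do not. Ltf, Cxcl17, Lcn2, C3, Pigr and Slpi are filled in every column, Wfdc2 is open in every column, and Padi1 is open in 4.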

How the data were processed

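The authors deposited 1 FPKM value per gene and sample for 6 laser-captured samples. The tools listed, per the submitters' processing notes and without their roles, are DESeq2 1.12.4, edgeR 3.28.0, featureCounts 1.5.0-p1 (Subread) and STAR 2.5.2b, and the build is mm10. Not given in the sources used here are any scaling between libraries, the annotation with its gene lengths, and whether strand was used, so reads on opposite strands of overlapping genes may be mixed. The 10 genes, the lists and the tests were chosen with earlier results of these data known.

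In R 4.3.3, limma 3.58.1 fitted genotype alone to log2(FPKM + 1) by lmFit and eBayes with a mean-variance trend. Adjustment of p-values ran over all 11427 genes whose mean reached 1 FPKM; 13537 were left out. The procedure was tested on simulated data. Named beside the 10 are Foxo1, Pgr, Esr1, up to 3 tested genes per related list with the smallest p, and the 2 nearest in pattern to each tested gene, leaving out unnamed models; 1 gene this names is not reported here. Any other gene was named after its values were seen. Positions are from GENCODE M21 (GRCm38, the assembly of mm10). Depth, a step added after the data were seen, was read from short RNA genes, whose FPKM times RefSeq length stepped in whole reads (88.5% to 100% of values below 12 reads whole to within 0.05, over 26 to 132 values), giving 0.0101 to 0.0135 FPKM per read at 1 kb; Foxo1dd replicate 2 has the fewest values. These read numbers use an exon length that may differ from that of the authors and carry counting error only. Alternatives were pseudocounts of 0.1 and 0.5, no minimum, a minimum of 5 FPKM, other scalings, other eBayes settings, array weights, a replicate block and leaving out each sample.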

Additional observations from a re-analysis of the deposited data

How the results depend on the processing

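All alternatives were planned, with earlier results of these data known. The log2 changes of Ltf, Lcn2, C3, Pigr, Slpi and Cxcl17 kept their direction and stayed called under all 16 alternatives, with Slpi moving to -6.38 at a pseudocount of 0.1. Padi1 lost its call with no minimum (1.00, adjusted p = 0.0705), and on leaving out a sample its log2 change ran from 0.68 to 1.39. The sign of Wfdc2, never called, turned under median-of-ratios scaling (0.12) and quantile normalization (0.062) and ran from -0.10 to 0.059 on leaving out a sample. Greb1, untested at the minimum used, moved to 0.83 at a pseudocount of 0.1. Of other named genes, in the same order of scalings, Padi4 turned sign (0.052 and 0.073), as did Paip2 (0.093 and 0.12) and Nedd8 (0.098 and 0.13). Paip2 and Nedd8, nearest to Wfdc2, also turned on leaving out single samples, from -0.12 to 0.040 and from -0.15 to 0.055. Snai3 and Eva1c, nearest to Padi1, lost their calls with no minimum (adjusted p = 0.0938 and 0.0685) and on leaving out most single samples (up to 0.146 and 0.118). Of 576 list counts under the alternatives, 39 moved beyond 1.5 times, most of them with another minimum, which changes how many genes are tested. Deviations of same-numbered samples correlated at 0.12, 0.11 and -0.13, and those of differently numbered samples at -0.21 to 0.15. These values do not settle whether the bioreplicate numbers pair the samples. With the number as a replicate block, 2417 genes were higher and 3724 lower, against 2533 and 3912, and the calls of the 10 genes stayed as they were. The 3 samples per group limit precision, and the Foxo1dd values of Slpi and the values of Wfdc18 in both groups rest on few reads.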
